A study of Mus musculus with 6 samples.

Results

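The 10 genes described here encode calcium channels and pumps, a calcium sensor and the calcium-dependent kinase of egg activation, and were chosen by gene symbol as a fixed list. They were *Itpr1*, *Itpr2*, *Itpr3*, *Camk2g*, *Trpm7*, *Cacna1h*, *Stim1*, *Orai1*, *Atp2a2* and *Atp2b1*, and all 10 were found among the 53465 Ensembl genes of the count table. RNA was sequenced from 6 pools of M II oocytes, 3 control pools and 3 pools matured with 10 μM quercetin, a plant flavonol. Every pool combined 15 oocytes of 3 female Kunming mice aged 9 to 10 months, and the study's methods give 16 h of in vitro maturation in M16 medium after the cumulus cells had been pipetted off. The labels name no transgene, and the control medium is described only as lacking quercetin. The study's methods give DMSO as the solvent of quercetin and do not say whether the control medium held it. The mice were from a single strain and a single age range, and neither young oocytes nor fertilized eggs were among the sequenced pools.

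At fertilization, sperm phospholipase C makes inositol trisphosphate (IP3), which opens IP3 receptors on the endoplasmic reticulum (ER) and releases calcium in repeated waves. Pumps return the calcium to the ER or move it out of the egg, and channels of the plasma membrane let in more calcium, without which the waves cannot go on. The calcium signal then activates CaMKII, whose gamma form in mouse eggs starts the exit from the arrest at metaphase II. An M II oocyte makes almost no new RNA, so its transcripts are a store laid down during growth. Because each pool was read as bulk RNA, a smaller store in every oocyte and oocytes without the transcript cannot be told apart.

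The 3 IP3 receptor genes are paralogues, and their sequences show whether their reads can be told apart. The 60 coding bases in which they were most alike, within a single exon of each gene, are shown from GENCODE release M21 on GRCm38, with capitals at the 10 positions where the 3 genes differ.
Itpr1: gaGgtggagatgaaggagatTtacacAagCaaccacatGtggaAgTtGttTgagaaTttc
Itpr2: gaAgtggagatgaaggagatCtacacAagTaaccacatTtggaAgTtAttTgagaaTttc
Itpr3: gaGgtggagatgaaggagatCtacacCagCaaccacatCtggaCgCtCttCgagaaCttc

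The *Itpr1* stretch lies in exon 34 of 62 at chr6:108405448-108405507 on the plus strand, and that of *Itpr2* in exon 31 of 56 at chr6:146323129-146323188 on the minus strand. The *Itpr3* stretch lies in exon 32 of 58 at chr17:27107658-27107717 on the plus strand. Even here *Itpr2* matched *Itpr1* at 55 of 60 bases and *Itpr3* matched it at 52. Over whole transcripts, the share of words of 31 bases that also occur in any other annotated gene was 1.42% for *Itpr1*, 0.580% for *Itpr2* and 1.95% for *Itpr3*. For *Itpr1* and *Itpr3* these words recur mostly in annotated antisense genes, not in a paralogue. Among the other members this share ran from 0% for *Camk2g* and *Orai1* to 5.42% for *Atp2a2*, whose words recur mostly in the annotated gene *Gm30970*. Whether the authors' counting used the strand is not stated, and small parts of *Itpr1* (1.58% of exon length), *Itpr3* (2.59%), *Cacna1h* (1.62%), *Atp2a2* (1.36%) and *Orai1* (0.305%) overlap other genes, mostly on the opposite strand.

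The sequencing kit primes on poly(A) tails, and tails are lengthened or removed during oocyte maturation, so the sequence near the 3′ end bears on what is captured. A cytoplasmic polyadenylation element, searched for on the transcript strand as TTTTAT or TTTTAAT in the last 150 bases of the longest coding transcript, was found in 2 of the 10 genes, *Atp2a2* and *Atp2b1*. It occurs in the same window of 28.0% of 9123 tested genes. The hexamer AATAAA or ATTAAA, the polyadenylation signal, was found in all 10 members and in 84.6% of those genes. The pair of elements are shown with the TTTTAT match in capitals.
Atp2a2: tgtaTTTTATtgtaacagacattgttttgc
Atp2b1: agccTTTTATtatttgtctatttgtaaagt

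They lie at chr5:122456404-122456433 on the minus strand and chr10:99026065-99026094 on the plus strand of GRCm38, with the match starting 90 and 75 bases before the end of the transcript model searched. *Atp2b1* holds 2 matches, of which 1 is shown. Other annotated models of *Atp2a2* reach further, to the gene's end at 122453513, and which end these oocytes use was not examined. A match is a description of the letters, and tail lengths were not measured.

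The pools held between 7880467 and 9938743 reads on genes. Levels are given in CPM, counts per 1000000 counts with library sizes scaled by the TMM method of edgeR, and 3 counts correspond to 0.302 to 0.381 CPM before that scaling. This floor covers counting error only, since amplified reads are not independent molecules. The labels do not say whether the pools of a group came from separate culture days, so p-values measure the spread between these pools. On the first principal component of the tested genes, which held 33.0% of the variance, quercetin replicates 1 and 2 lay apart at -34.4 and -28.5. Control replicates 1, 2 and 3 lay at -3.52, 29.0 and 9.03, and quercetin replicate 3 at 28.4. The log2 fold changes of the tested members are therefore given with and without quercetin replicates 1 and 2, here or in the closing section. These 2 pools were not alike throughout, since on the second component, with 24.7% of the variance, they lay at -19.0 and 37.0.

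Quercetin was compared with control over all genes, and 8 of the 10 members had enough reads to be tested, while *Itpr3* and *Stim1* did not. The study's criteria, an adjusted p under 0.05 together with a change of more than 2-fold, were met by none of the 8 in the quasi-likelihood test of edgeR, whose p-values were adjusted by the Benjamini-Hochberg (BH) method. The study's methods name no test for its own calls, so these calls are those of edgeR and not a repeat of the study's. No other gene met the criteria either, as 0% of the 11842 tested genes were called by these criteria or by the adjusted p alone. At an unadjusted p under 0.05, 1 of the 8 members passed, *Cacna1h*, beside 4.03% of all tested genes (477), which divide into 1.89% lower and 2.14% higher with quercetin. Without quercetin replicate 3, 3 members passed it, *Cacna1h*, *Camk2g* and *Trpm7*, all lower, but so did more of all genes, 8.3% lower and 4.66% higher. DESeq2 called 11 genes, the likelihood ratio test of edgeR 16 and limma-voom 0, and no member was among them. The median log2 fold change of the 8 members was -0.18, beside -0.026 over all tested genes, and 7 of the 8 were below 0, beside 53.6% of all tested genes. Without quercetin replicates 1 and 2 the sign turned for *Itpr1*, *Camk2g*, *Trpm7*, *Orai1* and *Atp2b1*, so the signs depend on which pools are included.

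**Figure D1:**
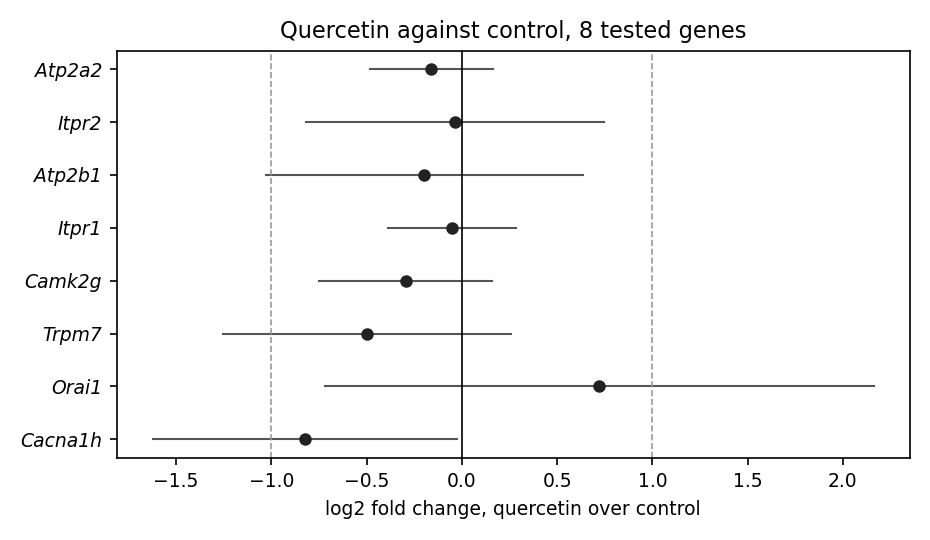
Log2 fold change of quercetin over control for the 8 tested genes (points), with 95% confidence intervals (bars) from edgeR's quasi-likelihood fit over 6 pools. The solid line marks no difference and the dashed lines a fold change of 2. The interval of *Itpr1* is narrow, from -0.39 to 0.28, that of *Orai1* reaches from -0.72 to 2.16, and that of *Cacna1h* lies below 0.

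Release from the ER was represented by the IP3 receptors. *Itpr1* (ENSMUSG00000030102, chromosome 6 from 108213096 to 108551109) encodes the type 1 receptor, the form best known from mouse eggs. It had 766, 758 and 687 counts across the control pools and 604, 766 and 728 across the quercetin pools. *Itpr1* was at 84.5 ± 6.97 CPM in control and 81.5 ± 5.35 CPM across the quercetin pools (SD, n = 3), and the groups overlapped. The log2 fold change of *Itpr1* was -0.05 (standard error, SE, 0.15), with a 95% interval from 0.764-fold to 1.22-fold (edgeR adjusted p = 0.995). *Itpr1* was the steadiest of the members, since its highest pool was 1.20 times its lowest and only 4.16% of tested genes had a smaller spread within groups.

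*Itpr2* (ENSMUSG00000030287, chromosome 6 from 146108299 to 146502223), the type 2 receptor, had 3039, 1593 and 1418 counts across the control pools and 2105, 2579 and 1084 across the quercetin pools. Control replicate 1 and quercetin replicates 1 and 2 were high and the other 3 pools low, so both groups held high and low pools. *Itpr2* had 230 ± 96.6 CPM in control and 224 ± 84.4 CPM across the quercetin pools (SD, n = 3). For *Itpr2* the log2 fold change was -0.04 (SE 0.35, edgeR adjusted p = 0.999), and its interval from 0.566-fold to 1.68-fold leaves room for a sizeable difference in either direction. Without quercetin replicates 1 and 2 it was -0.83, and without control replicate 1 it was 0.36, so the value rests on which pools are included. The spread of *Itpr2* within groups was larger than that of 88.3% of tested genes.

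*Itpr3* (ENSMUSG00000042644, chromosome 17 from 27057304 to 27122223), the type 3 receptor, was at the limit of detection. It had 13, 4 and 6 counts across the control pools and 5, 1 and 8 across the quercetin pools, and quercetin replicate 2 lay under the floor of 3 counts. No difference was detectable at this depth (exact permutation of the pools, two-sided, p = 0.5, where 3 pools against 3 cannot give less than 0.1).

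Filling of the ER and store-operated entry, the general pathway by which cells sense and replace ER calcium, were represented by *Atp2a2*, *Stim1* and *Orai1*. *Atp2a2* (ENSMUSG00000029467, chromosome 5 from 122453513 to 122502225) encodes SERCA2, the pump that returns calcium to the ER. It had 1464, 1338 and 1181 counts across the control pools and 1112, 1253 and 1130 across the quercetin pools. *Atp2a2* was at 152 ± 17.2 CPM in control and 136 ± 3.22 CPM across the quercetin pools (SD, n = 3). Control replicates 1 and 2 were above every quercetin pool, while control replicate 3, at 132 CPM, lay close to quercetin replicate 3 at 133 CPM. The log2 fold change of *Atp2a2* was -0.16 (SE 0.14, 95% interval from 0.716-fold to 1.12-fold, edgeR adjusted p = 0.988). It was -0.18 without quercetin replicates 1 and 2, ran from -0.24 without control replicate 3 to -0.10 without control replicate 1, and was -0.25 when scaled by library size only.

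*Stim1* (ENSMUSG00000030987, chromosome 7 from 102267806 to 102437319), the sensor of ER calcium that opens ORAI channels, had 10, 14 and 6 counts across the control pools and 5, 7 and 6 across the quercetin pools. These counts were too few for the filter, and groups were not separate (exact permutation of the pools, two-sided, p = 0.3). *Orai1* (ENSMUSG00000049686, chromosome 5 from 123015074 to 123030456), the channel pore that STIM proteins open, had 16, 7 and 5 counts across the control pools and 23, 17 and 5 across the quercetin pools. The 3 highest pools of *Orai1* were control replicate 1 and quercetin replicates 1 and 2, the same pools in which *Itpr2* was high. For *Orai1* the log2 fold change was 0.72 (SE 0.64, edgeR adjusted p = 0.988), its sign turned to -0.83 without quercetin replicates 1 and 2, and it was 1.32 without control replicate 1 and 0.21 without quercetin replicate 1.

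Calcium enters the egg across the plasma membrane through channels that include TRPM7 and CaV3.2, and PMCA pumps move it out. *Trpm7* (ENSMUSG00000027365, chromosome 2 from 126791565 to 126876230), a cation channel fused to a kinase, had 208, 333 and 275 counts across the control pools and 104, 197 and 272 across the quercetin pools. *Trpm7* was at 31.3 ± 8.33 CPM in control and 22.1 ± 9.48 CPM across the quercetin pools (SD, n = 3). Quercetin replicates 1 and 2 were below every control pool and quercetin replicate 3, at 31.9 CPM, lay within the controls. The change of *Trpm7* on the log2 scale was -0.50 (SE 0.33, edgeR adjusted p = 0.988). It was -0.86 without quercetin replicate 3, -0.23 without quercetin replicate 1 and 0.042 without both quercetin replicates 1 and 2.

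*Cacna1h* (ENSMUSG00000024112, chromosome 17 from 25374285 to 25433783) encodes CaV3.2, the T-type calcium channel of mouse oocytes. It was the only member whose groups did not overlap, with 24, 25 and 20 counts across the control pools and 12, 11 and 15 across the quercetin pools. In CPM, *Cacna1h* was at 2.64 ± 0.378 in control and 1.49 ± 0.279 across the quercetin pools (SD, n = 3), also apart when scaled by library size only. Among all tested genes, groups did not overlap in 10.6%, lower with quercetin in 5.17% and higher in 5.42%, so 1 such gene among the members is not a result about the list. On the log2 scale *Cacna1h* differed by -0.82 (SE 0.35, 95% interval from 0.325-fold to 0.982-fold). Its unadjusted p = 0.0444 and edgeR adjusted p = 0.988 do not pass the threshold, and the two-sided exact permutation test gave p = 0.1, the smallest that 3 pools against 3 allow. With 11 to 25 counts per pool, *Cacna1h* was measured with few reads, and the log2 fold change was -0.56 without quercetin replicates 1 and 2.

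*Atp2b1* (ENSMUSG00000019943, chromosome 10 from 98914406 to 99026143) encodes PMCA1, which pumps calcium out of the cell. It had 1524, 1119 and 1084 counts across the control pools and 1287, 476 and 1354 across the quercetin pools. A single pool, quercetin replicate 2, stood at 52.0 CPM while the other 5 lay between 122 and 170 CPM. *Atp2b1* thus had 142 ± 25.4 CPM in control and 124 ± 62.2 CPM across the quercetin pools (SD, n = 3), with a log2 fold change of -0.20 (SE 0.37, edgeR adjusted p = 0.990). Without quercetin replicate 2 the log2 fold change turned to 0.17.

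The effector kinase gene *Camk2g* (ENSMUSG00000021820, chromosome 14 from 20734875 to 20794088) encodes CaMKII gamma, which acts on EMI2 to release the egg from metaphase II. It had 273, 250 and 291 counts across the control pools and 177, 210 and 263 across the quercetin pools. *Camk2g* was at 31.04 ± 1.41 CPM in control and 25.3 ± 4.83 CPM across the quercetin pools (SD, n = 3), and quercetin replicates 1 and 2, at 22.1 and 23.0 CPM, lay below the controls while replicate 3, at 30.9 CPM, lay among them. *Camk2g* had a log2 fold change of -0.29 (SE 0.20, 95% interval from 0.595-fold to 1.12-fold, edgeR adjusted p = 0.988). It was -0.46 without quercetin replicate 3 and 0.0082 without quercetin replicates 1 and 2.

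**Figure D2:**
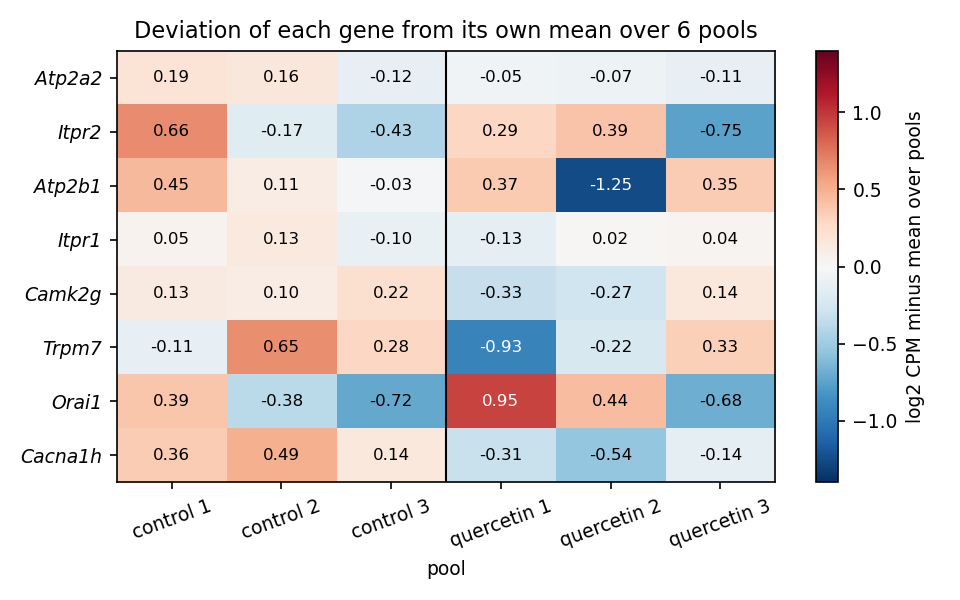
Log2 CPM of the 8 tested genes in each pool, minus the mean of that gene over the 6 pools (rows are genes, columns are pools, the line parts control from quercetin). *Itpr2* and *Orai1* were above their means in control 1, quercetin 1 and quercetin 2, *Atp2b1* was low in quercetin 2 at -1.25, and *Cacna1h* was above its mean in each control pool and below it in each quercetin pool.

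Variation between pools was thus uneven among the members. The spread within groups was above the median of all tested genes, 0.30 on the log2 scale, for *Itpr2* (0.60), *Trpm7* (0.52), *Orai1* (0.71) and *Atp2b1* (0.68). It was below that median for *Itpr1* (0.11), *Atp2a2* (0.12), *Camk2g* (0.19) and *Cacna1h* (0.19). Of the 4 spread-out genes, *Itpr2* and *Orai1* were high in the pools low on the first principal component, control replicate 1 included, while *Trpm7* was lowest in them. The part of this axis in the members' values was not tested.

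Levels of different genes were compared per length, as CPM per kb of merged exons, over all 6 pools. *Atp2a2* was the highest at 23.7 ± 2.32, followed by *Itpr2* at 15.3 ± 5.48, *Atp2b1* at 8.74 ± 2.87 and *Itpr1* at 4.53 ± 0.316 CPM per kb (SD, n = 6). *Camk2g* followed at 4.40 ± 0.698 and *Trpm7* at 2.36 ± 0.834 CPM per kb (SD, n = 6). The other members trailed, with *Orai1* at 0.618 ± 0.400, *Cacna1h* at 0.211 ± 0.0716, *Stim1* at 0.0894 ± 0.0393 and *Itpr3* at 0.0791 ± 0.0503 CPM per kb (SD, n = 6). The ranges of neighbours in this order overlapped over the 6 pools, as did some ranges further apart, such as *Atp2b1* (3.42 to 11.2 CPM per kb) and *Trpm7* (1.15 to 3.53), whereas that of *Atp2a2* (21.8 to 26.9) lay above *Atp2b1*. Within pools, *Atp2a2* was above *Itpr2*, *Camk2g* above *Trpm7*, *Orai1* above *Cacna1h* and *Cacna1h* above *Stim1* in 6 of 6. *Itpr2* was above *Atp2b1*, *Atp2b1* above *Itpr1* and *Trpm7* above *Orai1* in 5 of 6. *Itpr1* was above *Camk2g* in 3 pools and *Stim1* above *Itpr3* in 2, so these 2 pairs had no steady order. The median of tested genes was 3.29 CPM per kb, and 83.9% of them were below *Atp2a2*, 77.9% below *Itpr2*, 56.6% below *Itpr1* and 2.47% below *Cacna1h*. With the longest transcript as the length the order was the same, but levels moved, *Atp2b1* to 18.6, *Itpr1* to 8.41, *Camk2g* to 7.61, *Trpm7* to 3.76 and *Stim1* to 0.213 CPM per kb, and *Itpr2*, at 19.4, was then close to *Atp2b1*.

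**Figure D3:**
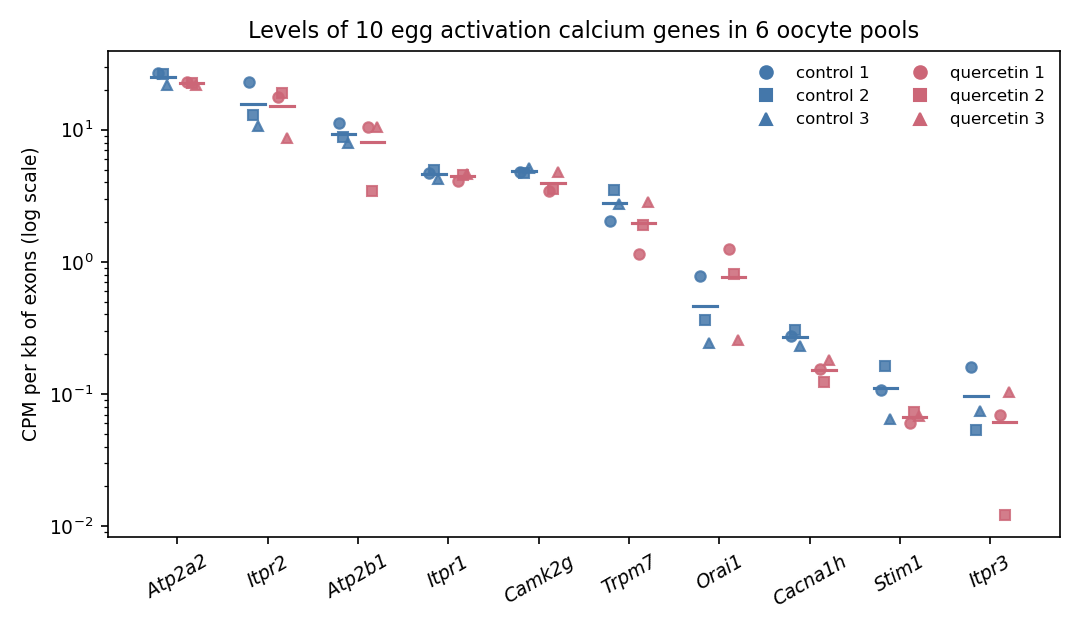
CPM per kb of merged exons (log axis) of the 10 genes in each of 3 control (blue) and 3 quercetin (red) pools, with the shape of the symbol marking the replicate and the group mean as a short line. The genes run from *Atp2a2* at 23.7 to *Itpr3* at 0.0791 CPM per kb on average, and control and quercetin pools overlap except for *Cacna1h*.

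For the IP3 receptor, CaMKII, SERCA, PMCA, STIM and ORAI families of paralogues, the share of summed CPM per kb shows which gene supplied most of the transcript. Shares were not computed for the families of *Trpm7* and *Cacna1h*. *Itpr2* supplied most of the IP3 receptor transcript, 82.6%, 72.0% and 71.5% in control pools and 80.9%, 80.6% and 64.3% across the quercetin pools. *Itpr1* supplied between 16.8% and 34.9%, and *Itpr3* at most 0.779%. *Itpr2* was thus above *Itpr1* in each of the 6 pools, and the shares of the groups overlapped.

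*Camk2g* supplied between 97.6% and 99.7% of CaMKII transcript. *Camk2a* had 0 counts in every pool, *Camk2b* at most 3 and *Camk2d* at most 15. *Atp2a2* supplied 100% of SERCA transcript, since *Atp2a1* and *Atp2a3* had 0 counts in every pool, which allows at most 0.381 CPM for each by the floor of 3 counts. *Atp2b1* supplied between 77.3% and 93.5% of PMCA transcript, with the lowest share in quercetin replicate 2, where *Atp2b4* held 21.4%. *Atp2b4* had 113, 66 and 85 counts across the control pools and 72, 106 and 75 across the quercetin pools, *Atp2b2* had at most 5 and *Atp2b3* at most 13.

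The store-operated pair was led by paralogues outside the list. *Stim2*, a second sensor of ER calcium, supplied between 96.2% and 98.7% of STIM transcript, with 158, 181 and 176 counts across the control pools and 93, 87 and 226 across the quercetin pools. *Orai3* had 30, 21 and 27 counts across the control pools and 3, 32 and 18 across the quercetin pools, and *Orai2* had 3 counts in control replicate 2 and 0 elsewhere. *Orai1* supplied 33.2%, 22.8% and 14.7% of ORAI transcript in control pools and 87.7%, 33.1% and 20.6% across the quercetin pools, where the 87.7% of quercetin replicate 1 rests on 23 counts of *Orai1* and 3 of *Orai3*. In the other 5 pools *Orai3* was above *Orai1* per length.

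**Figure D4:**
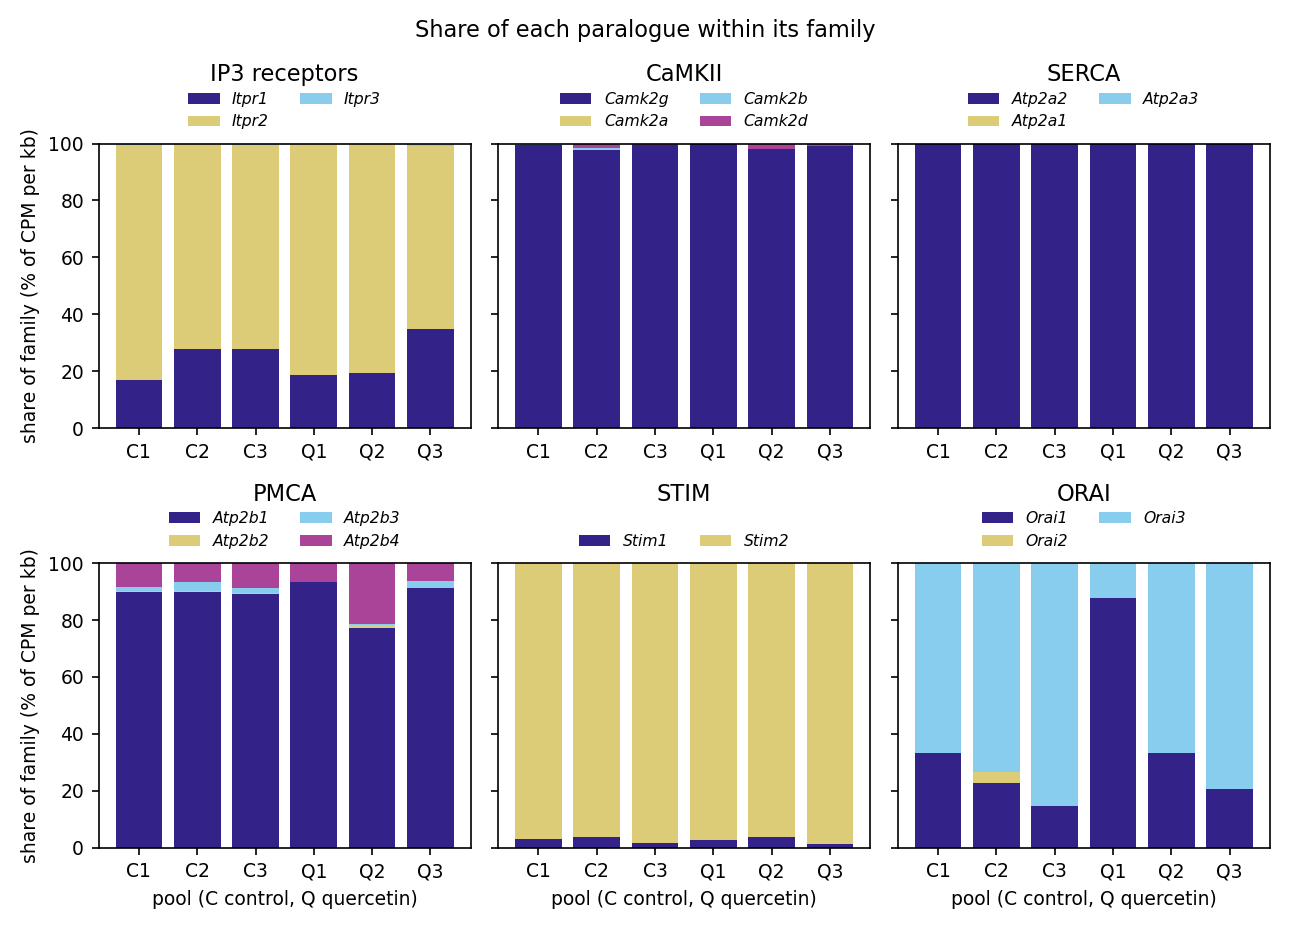
Share of each paralogue in the summed CPM per kb of its family (percent, stacked to 100) in control pools C1 to C3 and quercetin pools Q1 to Q3. *Itpr2*, *Camk2g*, *Atp2a2*, *Atp2b1* and *Stim2* lead their families in each pool, while ORAI transcript is led by *Orai3* except in Q1, where *Orai1* held 87.7%.

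Other genes of the pathway were taken from a list of 79 genes in 5 roles. Of these, 39 were tested, 15 had 0 counts in every pool, and none passed an adjusted p under 0.05 in edgeR, DESeq2 or limma-voom. At an unadjusted p under 0.05, 2 were higher with quercetin, beside 2.14% of all tested genes, and 0 were lower. With 1 pool left out, the number higher ran from 1 to 3. Leaving out quercetin replicates 1 and 2 gave 1 higher, beside 2.33% of all tested genes, and 1 lower, beside 2.77%. Leaving out quercetin replicate 3 gave 2 higher, beside 4.66%, and 5 lower, beside 8.3%, the latter *Calr*, *Hspa5*, *Pdia3*, *Plcb1* and *Stim2*, of which *Calr* and *Hspa5* (ER chaperones) are named after their values were seen. The median log2 fold change of the 39 was -0.066, with 16 above 0 and 23 below 0. In the order of the roles below, 7 of 8, 5 of 8, 6 of 8, 2 of 4 and 3 of 11 were below 0, beside 53.6% of all tested genes. By TMM-scaled CPM the groups were apart and higher with quercetin for 4 of the 39, beside 5.42% of all tested genes, and apart and lower for 0, beside 5.17%. Of these 4, *Wee2* and *Prkcb* stayed apart when scaled by library size only, while *Saraf* and *Prkci* overlapped.

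Among 17 genes that make or break down IP3, 8 were tested, with log2 fold changes from -0.32 to 0.02. *Plce1*, a phospholipase C, was the most abundant per length at 8.64 CPM per kb, with 1398, 1070 and 1169 counts across the control pools and 1224, 951 and 1339 across the quercetin pools. *Inpp5a*, which breaks down IP3, followed at 3.23 CPM per kb. *Plcb1* and *Plcg2*, also phospholipases C, had the smallest p of this role, with log2 fold changes of -0.32 (SE 0.30) and -0.30 (SE 0.40).

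Among 11 regulators of IP3 receptors and other ER release genes, 8 were tested. *Erp44*, an ER protein that binds the type 1 IP3 receptor, was at 57.8 CPM per kb with a log2 fold change of 0.27 (SE 0.21). *Ryr3*, a ryanodine receptor, had 28, 22 and 17 counts across the control pools and 30, 31 and 26 across the quercetin pools.

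Among 11 genes of ER filling and buffering, 8 were tested, with a median log2 fold change of -0.30. *Calr*, *Hspa5*, *Hsp90b1*, *Pdia3* and *Stim2* (named after their values were seen) were below every control pool in quercetin replicates 1 and 2 only. *Calr* had 35.6, 66.3 and 46.1 CPM in control and 26.7, 24.6 and 69.8 CPM across the quercetin pools. *Saraf*, *Canx* and *Orai3* did not have this pattern. Those 2 replicates lay apart on the first principal component, and its part in these values was not tested. *Saraf*, which slows store-operated entry, and *Canx*, an ER chaperone, were the most abundant at 114 and 73.7 CPM per kb. *Saraf* had 311 ± 3.55 CPM in control and 359 ± 64.1 CPM across the quercetin pools (SD, n = 3), with a log2 fold change of 0.21 (SE 0.15), and its groups were apart by TMM but overlapped when scaled by library size only. *Pdia3*, an ER disulfide isomerase, had a log2 fold change of -0.31 (SE 0.28), *Stim2* of -0.31 (SE 0.36) and *Orai3* of -0.55 (SE 0.58). Of 17 genes for entry and extrusion at the plasma membrane, 4 were tested. *Trpc1*, a cation channel, was at 1.15 CPM per kb with 76, 75 and 70 counts across the control pools and 132, 82 and 38 across the quercetin pools. *Atp2b4* had a log2 fold change of -0.03 (SE 0.26) and *Cacna1d*, an L-type calcium channel, of -0.37 (SE 0.27).

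Among 23 genes listed as calcium effectors of meiotic exit, not all of them activated by calcium, 11 were tested. Of these, 3 had a log2 fold change below 0, beside 53.6% of all tested genes. *Wee2*, the kinase that CaMKII activates to shut off CDK1, was the most abundant at 244 CPM per kb. It had 717 ± 12.3 CPM in control and 815 ± 44.4 CPM across the quercetin pools (SD, n = 3), without overlap, and a log2 fold change of 0.18 (SE 0.12). *Ppp3r1*, the regulatory subunit of calcineurin, was at 60.2 CPM per kb with a log2 fold change of 0.02 (SE 0.17).

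*Prkcb*, a protein kinase C that calcium activates, had 28, 33 and 31 counts across the control pools and 71, 57 and 56 across the quercetin pools, without overlap. Its log2 fold change was 1.03 (SE 0.28), with an unadjusted p = 0.00461 and an edgeR adjusted p = 0.988. *Prkci*, an atypical protein kinase C that calcium does not activate, had 103 ± 12.1 CPM in control and 137 ± 18.5 CPM across the quercetin pools (SD, n = 3). The log2 fold change of *Prkci* was 0.41 (SE 0.16), with an unadjusted p = 0.0332 and an edgeR adjusted p = 0.988. Neither passed the threshold. The unadjusted p of *Prkci* was above 0.05 in the likelihood ratio test, with library size only and with the replicate block. It was also above 0.05 without control replicate 2, control replicate 3 or quercetin replicate 2. For *Prkcb* it stayed under 0.05 in each of these settings.

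**Figure D5:**
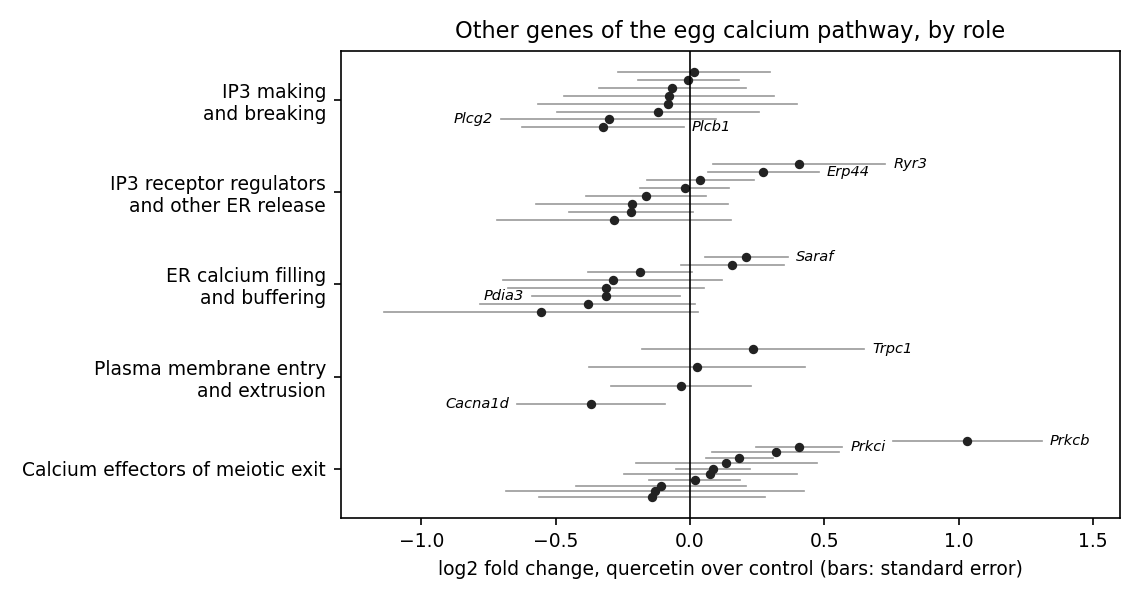
Log2 fold change of quercetin over control (points) with its standard error (bars) for the 39 tested genes of the pathway list, by role. The genes with the 2 smallest p-values of each role are named. Most points lie between -0.5 and 0.5, and *Prkcb* lies furthest out at 1.03.

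The labelled cell type was checked against marker genes. The 10 oocyte markers were present in every pool, with a summed level from 18487 to 22407 CPM and *Dppa3* as the most abundant at 6832 to 10086 CPM. The 17 cumulus and granulosa genes summed to 95.3, 75.4 and 89.7 CPM in the control group and 98.4, 100 and 96.1 CPM across the quercetin pools. *Cyp19a1*, the aromatase gene, made up most of this and was itself apart, at 58.2 to 68.6 CPM in control and 72.9 to 75.7 CPM across the quercetin pools. The groups overlapped for *Nr5a2* and *Has2*, the next most abundant. *Ptx3*, *Foxl2*, *Amhr2* and *Krt18* had 0 counts in every pool. With TMM scaling, the summed levels of the oocyte and the cumulus genes were higher in each quercetin pool than in each control pool. Scaled by library size only, the groups overlapped for both sums. The part of these levels in the members' values was not tested. Of the 10 oocyte genes, *Gdf9*, an oocyte growth factor, was apart between the groups with TMM scaling, at 5566 to 5846 CPM in control and 5988 to 7481 CPM across the quercetin pools. The other 9 overlapped, and groups were apart in 10.6% of all tested genes. Scaled by library size only, the groups of *Gdf9* overlapped as well. *Dppa3* was lowest in quercetin replicate 3, and *Ooep*, of the maternal complex beneath the oocyte membrane, had 488, 968 and 691 CPM in control and 235, 268 and 635 CPM across the quercetin pools (*Gdf9* and *Ooep* are named after their values were seen). Of 7 blood genes, the 4 globin genes had 0 counts in every pool, and *Cd68* was the most abundant at 2.24 to 3.48 CPM.

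Genes outside the lists with the most similar profile over the 6 pools were found by the root mean square difference of log2 CPM, each gene centred on its own mean. For *Orai1*, whose log2 CPM varied most among the members (SD 0.69), these included *AI838599* (0.101) and *Ccdc74a* (0.212), beside a median of 0.683 over all other tested genes. For *Itpr1* they were *Tram1* (0.0255), *Kntc1* (0.0257) and *Rbl1* (0.0425), beside a median of 0.299. All values come from the same 6 libraries and share their depth and scaling.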

How the data were processed

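The authors deposited read counts for 53465 Ensembl genes in 6 pools, without normalization. The study's methods name Hisat2 and GRCm38.91, whereas the submitters' processing notes list TopHat2 2.0.6 and CASAVA 1.8. The counting program is not given in the sources used here. Symbols matched 53274 identifiers, and lengths, places and sequences came from GENCODE M21 (GRCm38). Protein sequences were not used here.

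Genes with enough counts (filterByExpr, minimum 10) numbered 11842 of 24476 with any count. Counts were scaled by TMM and fitted in edgeR 4.0.16 (quasi-likelihood, no covariate, R 4.3.3), and p-values were adjusted over every tested gene (Benjamini-Hochberg, BH). Permutation tests used log2 of CPM plus 0.5. The fit was tested on simulated counts for this comparison over 11842 genes. At an adjusted p under 0.05 alone, without the fold criterion, it called 24% of 100 genes changed 2-fold and 85% of 100 changed 4-fold. The simulated counts were drawn independently for each gene, so they hold no axis shared between genes such as the first principal component.

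Members and gene lists were chosen with earlier results of these data known. All members are named. Of the pathway list, paralogues of members and, in each role, the 2 most abundant and the 2 of smallest p are named, and 3 genes were taken for profile likeness, though 2 genes that this rule names are not reported here. Alternatives were DESeq2 1.42.0, limma-voom (limma 3.58.1), other scalings, filters and lengths, pools left out, and a replicate block.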

Additional observations from a re-analysis of the deposited data

How the results depend on the processing

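No member was called under any of the 15 alternatives. The number of genes called, 0 with edgeR's quasi-likelihood test (477 at an unadjusted p under 0.05), was 11 with DESeq2, 16 with the likelihood ratio test, 3 without a filter, and 0 to 6 with 1 pool left out (6 without quercetin replicate 3, 4 without quercetin replicate 1). The cause was not tested. With 1 pool left out, the log2 fold change ran from -0.10 to 0.0030 for *Itpr1*, from -0.24 to 0.36 for *Itpr2* and from -0.43 to 0.17 for *Atp2b1*, changing sign in each. Leaving out quercetin replicates 1 and 2 together, added after seeing the data, leaves 1 quercetin pool, assumed to vary like the controls. It turned the sign for *Itpr1* (0.032), *Camk2g* (0.0082), *Trpm7* (0.042), *Orai1* (-0.83) and *Atp2b1* (0.18). For *Cacna1h* the log2 fold change stayed between -0.96 and -0.69 with 1 pool left out, but its unadjusted p was above 0.05 without any 1 of the 5 pools other than quercetin replicate 3, in DESeq2, without a filter and with the replicate block. Counts without division by length gave 96.7% for the share of *Camk2g* and 5.26% for that of *Stim1*. All 10 members kept their order of level with the longest transcript and with library size only.

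Pools share the replicate numbers 1 to 3, and the labels tie these numbers to no batch or day. Deviations of same-numbered pools correlated across genes by 0.305, 0.0923 and -0.0313, beside -0.305 to 0.187 for differently numbered pools. Whether same-numbered pools shared more than a number is not known. With the replicate block, 0 genes were called and the log2 fold changes were -0.05 for *Itpr1*, -0.05 for *Itpr2*, -0.31 for *Camk2g*, -0.56 for *Trpm7*, -0.82 for *Cacna1h*, 0.69 for *Orai1*, -0.15 for *Atp2a2* and -0.34 for *Atp2b1*. Depth limits *Itpr3*, *Stim1*, *Orai1* and *Cacna1h*, each at 25 counts or fewer in every pool.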
